A study of Mus musculus with 18 samples.

Results

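The genes described are 9 components and targets of LIF and STAT3 signalling: Lif, Lifr, Il6st, Jak1, Stat3, Socs3, Pim1, Pim3 and Gbx2. They were chosen by name, with earlier results of these data known, from the 53672 genes listed in each count table, and each symbol matched 1 row. All 9 had enough counts to enter the test, in which 18791 genes were compared.

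Leukaemia inhibitory factor (LIF) is the cytokine that keeps mouse embryonic stem cells (ESCs) self-renewing in culture. It binds the receptor LIFR, which pairs with the shared signal transducer gp130 (encoded by Il6st). The kinase JAK1, bound to the receptor, then phosphorylates STAT3, which enters the nucleus and activates target genes, among them the feedback inhibitor Socs3, the kinases Pim1 and Pim3 and the homeobox gene Gbx2.

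RNA-seq had been performed on Hdac1/2 lox/lox ESCs of the E14TG2a line, in which 4-hydroxytamoxifen (OHT) deletes the endogenous Hdac1 and Hdac2 genes. The 3 lines compared carried a stably integrated piggyBac transgene for wild-type HDAC1 (HDAC1-WT), HDAC1–E63R or HDAC1–Y48E, the last pair being point mutants of the surface that binds partner proteins. According to the study's methods, OHT was present for the first day only, and culture then continued without it being described. Each line was sequenced untreated and after OHT (1 µM, labelled as 5 days), with 3 libraries in each of the 6 groups. LIF was present in the medium of all groups. The untreated cells of each line therefore hold the endogenous genes as well as the transgene. Every genotype is represented by 1 stable line, so differences between untreated lines cannot be told apart from differences between the lines' histories. The study calls the libraries biological replicates, but whether they came from separate cultures is not given in the sources used here, so p-values measure the spread between these libraries, which may be technical.

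Counts on genes ranged from 9019615 to 11454638 per library, where 3 counts, the upper limit allowed by a count of 0, correspond to between 0.248 and 0.343 CPM. CPM are counts scaled to a common library total after TMM scaling. The log2 fold changes of Hdac1 after OHT were -0.24, 0.22 and 0.14 in the HDAC1-WT, HDAC1–E63R and HDAC1–Y48E lines. Those of Hdac2 were -0.66, -0.21 and -0.07. None passed the test, so these counts do not settle the deletion. The mean Hdac1 level was higher in the HDAC1-WT line, at 205 CPM untreated and 174 CPM after OHT. It was 105 and 122 CPM in HDAC1–E63R and 101 and 112 CPM in HDAC1–Y48E cells, a difference given without a test. How many Hdac1 reads came from the transgene was not tested. The defining markers of ESCs were abundant in all groups, none of 10 being at 0. The third library of the untreated HDAC1–E63R cells stood apart from its group. All 18 libraries share 1 estimate of the spread, so this library entered every test. The calls on members that changed without it are given. For the further pathway list below, the numbers passing after OHT without it are given, but only some tests of differences between lines.

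A gene was taken to pass at an adjusted p under 0.01 (edgeR's quasi-likelihood test, Benjamini-Hochberg adjustment over all 18791 genes), and a differentially expressed gene (DEG) had in addition to change more than 2-fold. No member passed after OHT in the HDAC1-WT line, where 0.0585% of all genes did, and 2 of 9 had an unadjusted p under 0.05. In the HDAC1–E63R line Pim1 and Pim3 fell, which is 2 of 9 members against 14.3% of all genes (6.82% that fell), and neither was a DEG (5.91% of all genes). In the HDAC1–Y48E line Lifr fell and was a DEG, which is 1 of 9 members against 30.9% of all genes that passed (14.7% that fell) and 16.6% that were DEGs. No member rose after OHT in any line. Without the third untreated HDAC1–E63R library, 0, 3 and 3 members passed in the HDAC1-WT, HDAC1–E63R and HDAC1–Y48E lines, all of them lower, where 1.39%, 18.5% and 41.1% of all genes passed. Stat3 was added in HDAC1–E63R, and Stat3 and Pim3 were added in HDAC1–Y48E. The median log2 fold change of the 9 members was 0.05, -0.11 and -0.27 in the HDAC1-WT, HDAC1–E63R and HDAC1–Y48E lines, beside 0, 0.03 and 0.05 over all genes tested. The libraries of the compared groups did not overlap for 3 members in the HDAC1-WT line (19.2% of all genes), for 3 in the HDAC1–E63R line (36.9%) and for 7 in the HDAC1–Y48E line (59.4%).

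**Figure D1:**
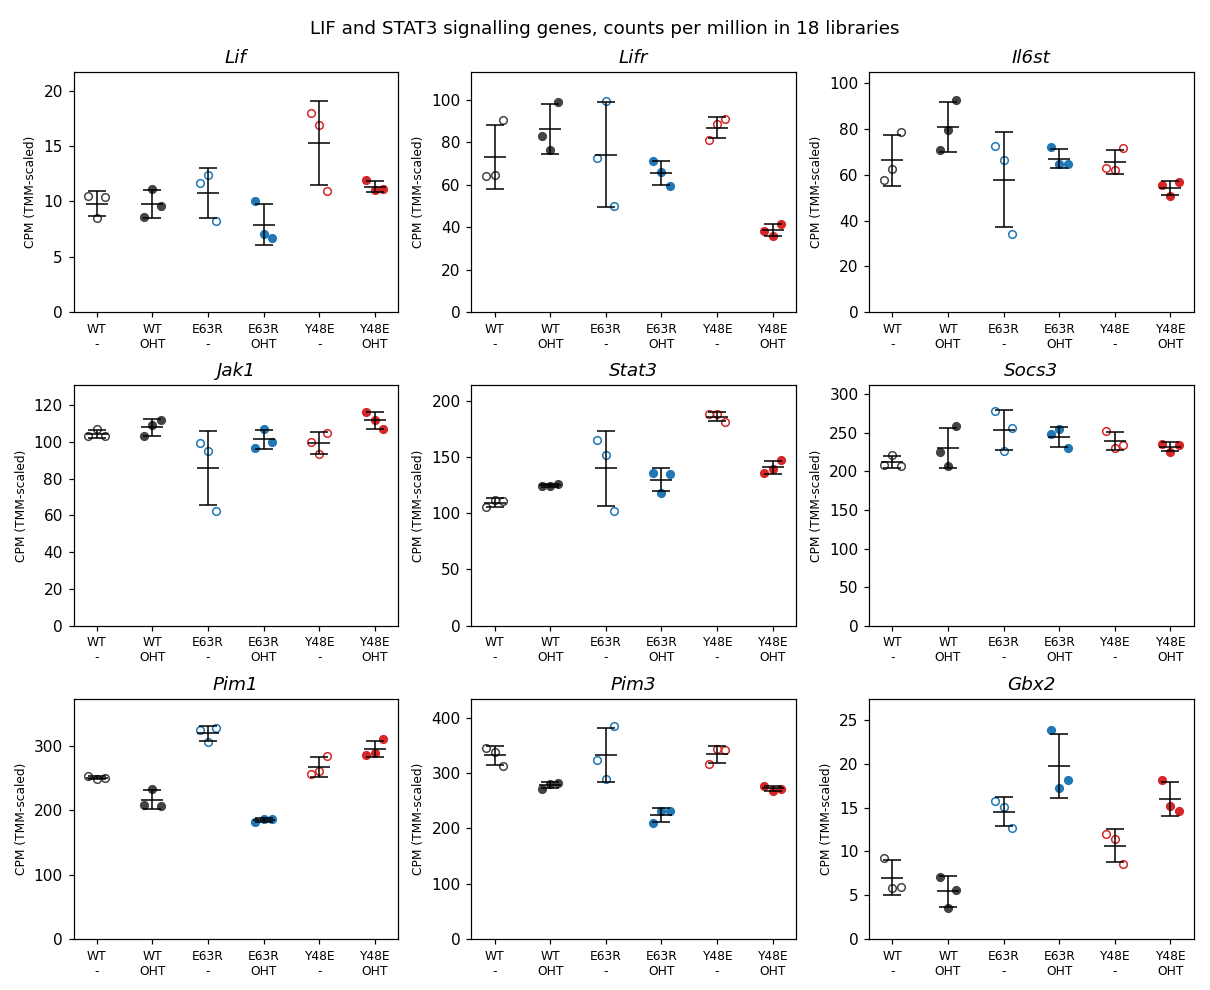
Level of each of the 9 genes in the 18 libraries, in TMM-scaled CPM on a linear axis from 0; open circles are untreated and filled circles OHT-treated libraries (grey HDAC1-WT, blue HDAC1–E63R, red HDAC1–Y48E), and bars give the mean ± SD of 3 libraries. The 3 OHT-treated HDAC1–Y48E libraries hold the lowest Lifr levels of that line (35.7 to 41.4 CPM), and the 3 OHT-treated HDAC1–E63R libraries hold the lowest Pim1 levels (181 to 187 CPM).

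Per kilobase of exon, which allows levels to be compared between genes, Pim3, Socs3 and Pim1 stood above the components of the pathway, whereas the target Gbx2 did not. The mean over the 18 libraries was 122 CPM per kb for Pim3, 81.4 for Socs3 and 76 for Pim1. Stat3 (14.5 CPM per kb) and Jak1 (14.1) followed at nearly the same level, and their order differed between groups. Lifr (6.56 CPM per kb), Il6st (5.89) and Gbx2 (5.62) came next, and Lif was lowest at 2.48. Socs3 was the least variable member, its highest library being 1.35 times its lowest, and Gbx2 the most variable at 6.76 times.

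Lif encodes the ligand itself, which was also supplied in the medium. Its level was 10.5, 8.52 and 10.4 CPM in the untreated HDAC1-WT libraries and 8.57, 11.1 and 9.63 CPM after OHT. The HDAC1–E63R libraries held 11.7, 12.4 and 8.23 CPM untreated and 10, 7.05 and 6.65 CPM after OHT. The HDAC1–Y48E libraries held 18, 16.9 and 10.9 CPM untreated and 11.9, 11 and 11.1 CPM after OHT. The untreated and treated libraries overlapped in every line, and the untreated HDAC1–Y48E group held both the highest libraries and the widest spread. The log2 fold changes after OHT were -0.01 (95% interval -0.49 to 0.47), -0.45 (-0.93 to 0.04) and -0.43 (-0.90 to 0.04) in the HDAC1-WT, HDAC1–E63R and HDAC1–Y48E lines, and none passed (adjusted p = 1, 0.172 and 0.133, edgeR). Untreated HDAC1–Y48E cells had 0.64 ± 0.23 (SE) more on the log2 scale than untreated HDAC1-WT cells, without overlap, but this did not pass either (adjusted p = 0.052, edgeR).

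Lifr, the LIF-specific receptor subunit, gave the largest change among the 9 genes after OHT. Its level in the HDAC1–Y48E line was 81.2, 88.6 and 90.8 CPM untreated and 38.3, 35.7 and 41.4 CPM after OHT. The 3 treated libraries lay below all other 15 libraries of the series. Lifr fell by 1.17 on the log2 scale in this line, from 86.8 ± 5.04 to 38.5 ± 2.83 CPM (SD, n = 3), a 2.26-fold lower level (SE 0.18, 95% interval -1.55 to -0.80, adjusted p = 2e-05, edgeR). In bulk RNA, fewer cells that express a gene and less RNA per cell cannot be told apart. In the same line, the summed level of 10 ESC markers was 6420 to 6560 CPM untreated and 3150 to 3340 CPM after OHT, and 8 of the 10 fell and 1 rose. The sum of 8 trophoblast markers was 101 to 111 CPM untreated and 144 to 155 CPM after OHT, and 4 of the 8 rose. HDAC1-WT libraries held more of these markers, at 225 to 248 CPM untreated and 251 to 283 CPM after OHT. The sum of 7 primitive endoderm markers was 18 to 25.7 CPM untreated and 46.3 to 51.9 CPM after OHT. Of the 6 tested, 1 rose, and untreated HDAC1-WT libraries held 41.1 to 43.6 CPM. The sum of 8 fibroblast markers was 40.9 to 43.4 CPM untreated and 95.2 to 105 CPM after OHT. Of the 4 tested, 2 rose, and Lum and Dcn were at 0 in the treated libraries. The fibroblast sum in HDAC1-WT was 43.4 to 49.6 CPM untreated and 62.2 to 66.1 CPM after OHT. The sum of 7 primed pluripotency markers in HDAC1–Y48E was 125 to 132 CPM untreated and 154 to 165 CPM after OHT. Of the 6 tested, 1 rose and 2 fell, and HDAC1-WT libraries held 217 to 219 CPM untreated and 248 to 294 CPM after OHT. Of all genes tested, 16.2% rose and 14.7% fell after OHT in HDAC1–Y48E. The part of these marker differences after OHT in the change of Lifr was not tested.

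In the other lines Lifr did not pass. Its levels in the HDAC1-WT line were 64.2, 64.8 and 90.6 CPM untreated and 82.8, 76.5 and 99.2 CPM after OHT, which overlap (log2 fold change 0.24 ± 0.18 SE, adjusted p = 0.745, edgeR). Those in the HDAC1–E63R line were 72.4, 99.7 and 50.2 CPM untreated and 71.1, 65.9 and 59.5 CPM after OHT, with the lowest and the highest library both in the untreated group. The log2 fold change there was -0.18 ± 0.18 (SE, adjusted p = 0.509, edgeR) and, without the third untreated library, -0.39 ± 0.13 (adjusted p = 0.0179). The effect of OHT on Lifr was 1.41 lower on the log2 scale in the HDAC1–Y48E than in the HDAC1-WT line (difference -1.41, SE 0.25, adjusted p = 0.00032, edgeR interaction), a test that 12.6% of all genes passed. Against the HDAC1–E63R line the difference was -1 (SE 0.25) and did not pass (adjusted p = 0.0232, edgeR interaction), while without the third untreated HDAC1–E63R library it was -0.79 (SE 0.18) and did (adjusted p = 0.00123, a fit in which 7.45% of all genes passed). It also passed without the second untreated HDAC1–E63R library (-1.27, adjusted p = 0.000919). The untreated groups themselves were alike in mean, with 73.2 ± 15.1 CPM in HDAC1-WT, 74.1 ± 24.8 CPM in HDAC1–E63R and 86.8 ± 5.04 CPM in HDAC1–Y48E cells (SD, n = 3).

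The Lifr gene (ENSMUSG00000054263.12) lies at chr15:7090614-7197489 on the plus strand of mm10 (GENCODE M21, build GRCm38). RefSeq gives it a pair of start sites, and because the counts are per gene they do not show which was used. The upstream bases of both, from RefSeq on GRCm38.p6, are shown because Lifr is the member whose RNA changed most. They are printed up to the first annotated exon base, with CpG dinucleotides in capitals.
Lifr, upstream start, chr15:7129322-7129558, plus strand: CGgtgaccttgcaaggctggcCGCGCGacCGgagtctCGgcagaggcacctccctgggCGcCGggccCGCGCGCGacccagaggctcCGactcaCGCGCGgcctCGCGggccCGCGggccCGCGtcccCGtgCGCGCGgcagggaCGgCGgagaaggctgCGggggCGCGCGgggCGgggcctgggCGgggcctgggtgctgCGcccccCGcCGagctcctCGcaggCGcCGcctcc
Lifr, downstream start, chr15:7140292-7140541, plus strand: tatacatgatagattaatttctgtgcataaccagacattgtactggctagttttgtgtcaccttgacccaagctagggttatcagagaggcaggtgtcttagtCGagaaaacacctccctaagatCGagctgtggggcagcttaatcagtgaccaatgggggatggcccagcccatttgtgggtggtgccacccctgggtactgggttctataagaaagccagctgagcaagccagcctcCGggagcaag
These stretches differ in base composition. The 237 bases before the upstream start were 82.7% G and C with 40 CpG (16.9 per 100 bases), and the 250 bases before the downstream start were 50.8% G and C with 3 CpG (1.2 per 100 bases). Over the 32851 RefSeq promoter windows of 250 upstream bases, the medians were 52.4% and 2.4 CpG per 100 bases.

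Il6st encodes gp130, the signal transducer that LIFR shares with other cytokine receptors. Its level was 57.7, 62.4 and 78.9 CPM in untreated HDAC1-WT libraries and 70.7, 79.5 and 92.6 CPM after OHT. The HDAC1–E63R libraries held 72.8, 66.5 and 34.1 CPM untreated and 72, 64.6 and 64.7 CPM after OHT. The HDAC1–Y48E libraries held 63, 62.3 and 71.7 CPM untreated and 55.5, 50.9 and 56.7 CPM after OHT. All treated HDAC1–Y48E libraries lay below the untreated ones, whereas the groups of the other lines overlapped. The log2 fold changes were 0.29, 0.21 and -0.27 in the HDAC1-WT, HDAC1–E63R and HDAC1–Y48E lines and none passed (adjusted p = 0.676, 0.442 and 0.249, edgeR). The value for HDAC1–E63R was -0.06 without the third untreated library, so its sign rests on that library. The difference of effect between the HDAC1–Y48E and HDAC1-WT lines was -0.56 (SE 0.26) and did not pass (adjusted p = 0.136, edgeR interaction). It was -0.57 and passed both with only the libraries compared (SE 0.16, adjusted p = 0.00529) and without the third untreated HDAC1–E63R library (SE 0.15, adjusted p = 0.00256).

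Jak1 encodes the kinase that phosphorylates gp130 and STAT3. Its level was 103, 107 and 103 CPM in untreated and 103, 109 and 112 CPM in treated HDAC1-WT libraries. HDAC1–E63R cells had 99.5, 95 and 62.4 CPM untreated and 96.9, 107 and 100 CPM after OHT. HDAC1–Y48E cells had 99.9, 93.4 and 105 CPM untreated and 116, 112 and 107 CPM after OHT. Of the 18 libraries, 17 lay between 93.4 and 116 CPM and the third untreated HDAC1–E63R library was at 62.4 CPM. The log2 fold changes were 0.05 (95% interval -0.21 to 0.31), 0.24 (-0.02 to 0.50) and 0.17 (-0.09 to 0.43), and none passed (adjusted p = 0.956, 0.17 and 0.293, edgeR). Without that library the value in the HDAC1–E63R line was 0.06 ± 0.09 (SE).

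Stat3 encodes the transcription factor at the end of the cascade, and it differed between the lines before OHT. In untreated cells it stood at 105, 112 and 111 CPM in HDAC1-WT and at 188, 188 and 181 CPM in HDAC1–Y48E libraries, without overlap. Stat3 was 1.7-fold higher in untreated HDAC1–Y48E than in untreated HDAC1-WT cells (log2 difference 0.76, SE 0.13, adjusted p = 0.00011, edgeR), and it was the only 1 of 9 members to pass in this comparison, against 12.2% of all genes. Lif, Socs3 and Pim1 were also higher in all untreated HDAC1–Y48E than in all untreated HDAC1-WT libraries, which makes 4 of 9 members without overlap (40.2% of all genes). Stat3 alone passed also without the third untreated HDAC1–E63R library (21.4% of all genes). In untreated HDAC1–E63R cells Stat3 was at 165, 152 and 102 CPM, a log2 difference from HDAC1-WT of 0.36 ± 0.13 (SE) that did not pass with all libraries (adjusted p = 0.0361, edgeR). Without the third library, which lay below the HDAC1-WT group, it was 0.55 ± 0.08 and passed (adjusted p = 3.49e-07, a fit in which 20.5% of all genes passed).

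After OHT the Stat3 levels were closer together, at 124, 124 and 126 CPM in HDAC1-WT, 136, 118 and 135 CPM in HDAC1–E63R and 136, 139 and 147 CPM in HDAC1–Y48E libraries. The treated HDAC1–Y48E libraries all lay below their untreated counterparts, and the treated HDAC1-WT libraries all lay above theirs. The log2 fold change in HDAC1–Y48E was -0.40 (SE 0.12, 95% interval -0.66 to -0.14), just short of the limit (adjusted p = 0.0125, edgeR), and -0.41 with an adjusted p of 2.09e-06 when only the 6 libraries compared were fitted. Without the third untreated HDAC1–E63R library, which is not among them, it was -0.40 with an adjusted p of 4.86e-06. In HDAC1-WT it was 0.19 (SE 0.13, adjusted p = 0.684, edgeR). In HDAC1–E63R it was -0.11 (SE 0.12, adjusted p = 0.557, edgeR) with all libraries and -0.30 (SE 0.08, adjusted p = 0.00348) without the third untreated library, a fit in which 18.5% of all genes passed. The difference of effect between the HDAC1–Y48E and HDAC1-WT lines was -0.59 (SE 0.18) and did not pass (adjusted p = 0.0186, edgeR interaction). It was -0.60 and passed with only the libraries compared (SE 0.10, adjusted p = 1.16e-05) and without the third untreated HDAC1–E63R library (SE 0.10, adjusted p = 6.2e-06), where 4 members passed this test (Lifr, Il6st, Stat3 and Pim1) against 23.1% of all genes.

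Socs3, the feedback inhibitor that STAT3 induces, was the member with the narrowest range. Its level was 208, 222 and 207 CPM in untreated HDAC1-WT libraries and 225, 207 and 259 CPM after OHT. HDAC1–E63R cells had 278, 227 and 257 CPM untreated and 249, 255 and 230 CPM after OHT. HDAC1–Y48E cells had 253, 231 and 234 CPM untreated and 236, 225 and 235 CPM after OHT. Treated and untreated libraries overlapped in each line. The log2 fold changes were 0.12 (95% interval -0.09 to 0.32), -0.05 (-0.26 to 0.15) and -0.05 (-0.25 to 0.16), and none passed (adjusted p = 0.787, 0.739 and 0.726, edgeR). The bounds farthest from 0 in these intervals were 0.32 and -0.26. Between the untreated lines, all HDAC1–E63R and all HDAC1–Y48E libraries lay above the HDAC1-WT libraries, by 0.26 (SE 0.10, adjusted p = 0.0561, edgeR) and 0.17 (SE 0.10, adjusted p = 0.238), and neither difference passed.

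Socs3 was also the only member with a STAT-type palindrome in its upstream window. The motif searched was TTCNNNGAA, which reads the same on both strands, within the 250 bases before each RefSeq start. It was found in 7.02% of the 32851 windows and in 8.13% of the 27025 genes that have one. The match in Socs3 begins 154 bases upstream of the RefSeq start and is in capitals below. In GENCODE M21 the match lies within the span of the Socs3 gene but in no annotated exon. Of the 250 bases of the window, the 165 farthest from the RefSeq start come before any annotated exon base.
Socs3, chr11:117969497-117969535, minus strand (GRCm38.p6): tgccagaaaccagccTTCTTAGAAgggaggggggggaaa
The stricter form TTCCNGGAA was found in 0.913% of windows and in none of the members. The form with 1 more base between its arms was found in 5.85% of windows and, among the members, in Gbx2 only. A match is a description of these letters and not evidence of binding.

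Pim1 and Pim3 encode serine/threonine kinases that act in cell survival and growth. Pim1 stood at 324, 305 and 328 CPM in untreated HDAC1–E63R libraries and at 181, 187 and 187 CPM after OHT. The treated libraries held the lowest Pim1 levels of the series, and the untreated ones all lay above the untreated libraries of the other lines. Pim1 fell by 0.79 on the log2 scale in this line, from 319 ± 12.5 to 185 ± 3.72 CPM (SD, n = 3), a 1.73-fold lower level (SE 0.09, 95% interval -0.97 to -0.61, adjusted p = 1.03e-06, edgeR). Without the third untreated library it fell by 0.77 (adjusted p = 4.04e-12). In this line the summed ESC markers were at 5930 to 9480 CPM untreated and at 5160 to 5500 CPM after OHT, and 4 of 10 fell. The summed trophoblast markers were at 93.2 to 104 CPM and at 178 to 191 CPM, and 5 of 8 rose and 1 fell. HDAC1-WT libraries held more trophoblast marker RNA, at 225 to 248 CPM untreated and 251 to 283 CPM after OHT. The primed pluripotency sum in HDAC1–E63R was 123 to 140 CPM untreated and 176 to 189 CPM after OHT, and of 6 tested 2 rose and 1 fell. The primitive endoderm sum was 12.5 to 20.8 CPM and 22.3 to 27.2 CPM (1 of 6 tested rose). The fibroblast sum was 27.8 to 40.9 CPM and 60.6 to 68.7 CPM (2 of 4 tested rose). Of all genes tested, 7.49% rose and 6.82% fell after OHT in HDAC1–E63R. The part of the marker differences after OHT in the change of Pim1 was not tested.

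The Pim1 response differed between the lines. In the HDAC1-WT line it was at 253, 249 and 250 CPM untreated and at 208, 233 and 207 CPM after OHT, lower in all treated libraries (log2 fold change -0.22, SE 0.09), but this did not pass (adjusted p = 0.375, edgeR). In HDAC1–Y48E cells it was at 256, 260 and 284 CPM untreated and at 286, 289 and 310 CPM after OHT, higher in all treated libraries (0.15, SE 0.09), which did not pass either (adjusted p = 0.172, edgeR). The difference between the effects in HDAC1–Y48E and HDAC1-WT was 0.36 (SE 0.12, adjusted p = 0.0346, edgeR interaction) and passed without the third untreated HDAC1–E63R library (adjusted p = 0.00128). The OHT effect in HDAC1–Y48E was 0.94 above that in HDAC1–E63R (SE 0.12, adjusted p = 5.33e-05, edgeR interaction), and Pim1 was the only member to pass this test, against 1.95% of all genes. The effect in HDAC1–E63R was also lower than in HDAC1-WT (difference -0.57, SE 0.12, adjusted p = 0.00587, edgeR interaction), a test that 2.45% of all genes passed. That call was kept in 6 of 16 other fits, and the adjusted p ran from 2.23e-06 to 0.0305. It was lost when any 1 of the 3 untreated HDAC1-WT libraries, the first or the second treated HDAC1-WT library, the first untreated HDAC1–E63R library or any 1 of the 3 treated HDAC1–E63R libraries was left out, with differences between -0.60 and -0.51. With only the libraries compared no member passed it, and without the third untreated HDAC1–E63R library Lifr and Stat3 passed as well as Pim1 (6.53% of all genes).

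Pim1 also differed between lines before OHT. Untreated HDAC1–E63R cells had 1.27-fold more Pim1 than untreated HDAC1-WT cells (log2 difference 0.35, SE 0.09, adjusted p = 0.00391, edgeR), where 16.9% of all genes passed. This call was kept in 5 of 10 other fits, with log2 differences between 0.33 and 0.38. It was lost with only the libraries compared (adjusted p = 0.102, edgeR). It was also lost without any 1 of the 3 HDAC1-WT libraries and without the first HDAC1–E63R library (adjusted p = 0.0125 in the latter). After OHT the 3 HDAC1–E63R libraries lay below the HDAC1-WT libraries, at 185 ± 3.72 against 216 ± 14.8 CPM (SD, n = 3), a difference given without a test.

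Pim3 was lower in all treated libraries of each line. Its levels were 346, 338 and 313 CPM untreated and 272, 281 and 283 CPM after OHT in HDAC1-WT, and 317, 344 and 341 CPM untreated and 277, 268 and 272 CPM after OHT in HDAC1–Y48E. In HDAC1–E63R they were 324, 289 and 386 CPM untreated and 210, 231 and 231 CPM after OHT. The lowest levels were again those of the treated HDAC1–E63R libraries. Pim3 fell by 0.57 on the log2 scale in this line (1.49-fold lower, SE 0.10, adjusted p = 0.000211, edgeR), and by 0.45 without the third untreated library (adjusted p = 1.06e-06). In HDAC1-WT the change was -0.26 (SE 0.10, adjusted p = 0.35, edgeR) and in HDAC1–Y48E -0.29 (SE 0.10, adjusted p = 0.0187), and the differences between lines were not significant (-0.32 for HDAC1–E63R against HDAC1-WT, adjusted p = 0.196, and 0.28 for HDAC1–Y48E against HDAC1–E63R, adjusted p = 0.289, edgeR interaction). When only the 6 libraries of a line were fitted, the HDAC1–E63R call was lost (adjusted p = 0.0397) and that in HDAC1–Y48E was gained (adjusted p = 2.59e-05). The latter was also gained without the third untreated HDAC1–E63R library (adjusted p = 6.75e-05).

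**Figure D2:**
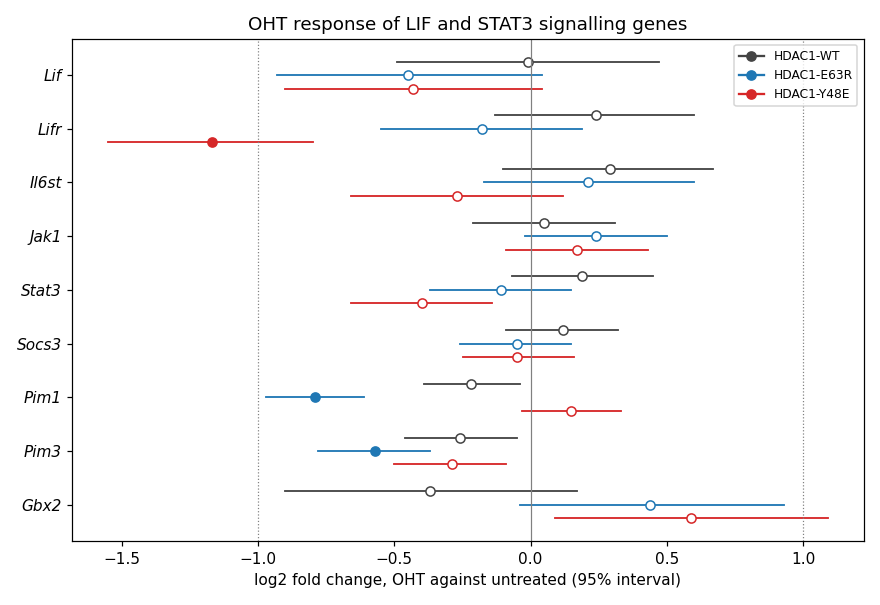
Log2 fold change of each member after OHT against untreated cells of the same line (x axis), with 95% intervals from the edgeR fit over 18 libraries; filled circles passed at an adjusted p under 0.01 and dotted lines mark a 2-fold change. Lifr in HDAC1–Y48E (-1.17), Pim1 in HDAC1–E63R (-0.79) and Pim3 in HDAC1–E63R (-0.57) passed, and the Socs3 intervals all lie between -0.26 and 0.32.

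Pim1 (ENSMUSG00000024014.8, chr17:29490753-29496112, plus strand) and Pim3 (ENSMUSG00000035828.11, chr15:88862186-88865726, plus strand) are on different chromosomes. Their upstream bases are printed because both members fell in the HDAC1–E63R line. They come from RefSeq on GRCm38.p6, end at the base before the first annotated exon and have CpG dinucleotides in capitals.
Pim1, the more upstream of its 2 RefSeq starts, chr17:29490535-29490752, plus strand: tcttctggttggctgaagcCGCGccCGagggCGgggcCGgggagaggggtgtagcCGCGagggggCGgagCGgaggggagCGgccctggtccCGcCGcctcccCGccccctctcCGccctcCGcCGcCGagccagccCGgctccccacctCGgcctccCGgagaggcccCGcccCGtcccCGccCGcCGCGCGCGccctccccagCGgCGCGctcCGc
Pim3, chr15:88861944-88862185, plus strand: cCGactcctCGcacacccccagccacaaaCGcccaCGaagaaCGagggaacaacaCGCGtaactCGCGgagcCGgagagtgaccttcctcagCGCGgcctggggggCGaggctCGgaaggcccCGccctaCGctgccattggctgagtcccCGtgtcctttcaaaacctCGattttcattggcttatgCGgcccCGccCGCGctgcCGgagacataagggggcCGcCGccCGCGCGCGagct
Both are rich in CpG, with 32 in the 218 bases before Pim1 (14.7 per 100 bases) and 29 in the 242 bases before Pim3 (12 per 100 bases). Their share of G and C was 83% and 67.4%. Neither window held TTCNNNGAA. The 202 bases before the other Pim1 start, not printed, were 46.5% G and C with 1.98 CpG per 100 bases. Members that did not pass after OHT with all libraries held 2.51 (Lif) to 10.4 (Il6st) CpG per 100 bases in such stretches. Gbx2 is not among them, since its window begins in an annotated exon. The other Pim1 start (1.98) and the downstream Lifr start (1.2) lay below that range. Whether CpG content goes with the changes after OHT was not tested.

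Pim1 shares 14.5% of its exon bases with Gm26885, an antisense gene, and whether the counting used strand is not given in the sources used here, so reads in the shared bases cannot be told apart. Gm26885 also fell after OHT in the HDAC1–E63R line (log2 fold change -0.64, SE 0.11, adjusted p = 0.000199, edgeR), from 81.3 ± 8.66 to 52.1 ± 4.12 CPM (SD, n = 3). Its change in the HDAC1–Y48E line was -0.04 (adjusted p = 0.81). Apart from such antisense overlaps, no transcript of another gene matched a member at 90% identity or more over at least 200 bases.

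Gbx2, a homeobox gene that LIF and STAT3 activate, was near the bottom of the range in counts and differed between the lines before OHT. It stood at 9.3, 5.8 and 5.9 CPM in untreated HDAC1-WT libraries and at 7.13, 3.54 and 5.65 CPM after OHT. In HDAC1–E63R it was at 15.8, 15.1 and 12.7 CPM untreated and at 23.9, 17.2 and 18.2 CPM after OHT. In HDAC1–Y48E it was at 12, 11.4 and 8.51 CPM untreated and at 18.2, 15.2 and 14.6 CPM after OHT. All treated libraries were above the untreated ones in both mutant lines, and the HDAC1-WT groups overlapped. The log2 fold changes were 0.44 (SE 0.23, adjusted p = 0.178, edgeR) in HDAC1–E63R, 0.59 (SE 0.24, adjusted p = 0.0517) in HDAC1–Y48E and -0.37 (SE 0.26, adjusted p = 0.714) in HDAC1-WT, and none passed. The difference of effect from the HDAC1-WT line was 0.96 (SE 0.35, adjusted p = 0.0553, edgeR interaction) in HDAC1–Y48E and 0.81 (SE 0.35, adjusted p = 0.187) in HDAC1–E63R.

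Between untreated lines, Gbx2 was 2.08-fold higher in HDAC1–E63R than in HDAC1-WT cells (log2 difference 1.05, SE 0.25, adjusted p = 0.00266, edgeR; 1.15 without the third HDAC1–E63R library), without overlap, and with Pim1 it was 1 of the 2 members to pass that comparison. It was the only member that was a DEG there (7.65% of all genes), and the call was kept in 6 of 10 other fits. It was lost with only the libraries compared (adjusted p = 0.0307, edgeR). It was also lost without the second or the third HDAC1-WT library (adjusted p = 0.0179 and 0.0171, edgeR) and without the first HDAC1–E63R library (0.011). Socs3, Pim1, Gbx2 and Jak1 did not overlap between these groups, which is 4 of 9 members against 35.2% of all genes. In untreated HDAC1–Y48E cells the difference was 0.60 (SE 0.25) and did not pass (adjusted p = 0.096, edgeR). D130058E05Rik, on the opposite strand, covers 43.5% of the Gbx2 exon bases and was also higher in untreated HDAC1–E63R cells, by 1.32 on the log2 scale (SE 0.29, adjusted p = 0.00143, edgeR). Because strand use is not given, the part of its reads in the Gbx2 counts was not tested.

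The third untreated HDAC1–E63R library affected the members unequally. Relative to the mean of the other 2 libraries of its group, Il6st stood at 48.9%, Lifr at 58.3%, Jak1 at 64.2%, Stat3 at 64.4% and Lif at 68.2%. Gbx2 stood at 82.1%, Socs3 at 102%, Pim1 at 104% and Pim3 at 126%. The 4 members with the most exon bases (Il6st, Lifr, Stat3 and Jak1) stood lowest and the 4 with the fewest stood highest, with Lif between them. Over 16452 genes, the correlation of this library's deviation from its group with log2 exon length was -0.28 (Pearson, a description across genes), beside 0.17 and 0.24 for the other libraries of the group and -0.05 to 0.08 for the libraries of all other groups.

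**Figure D3:**
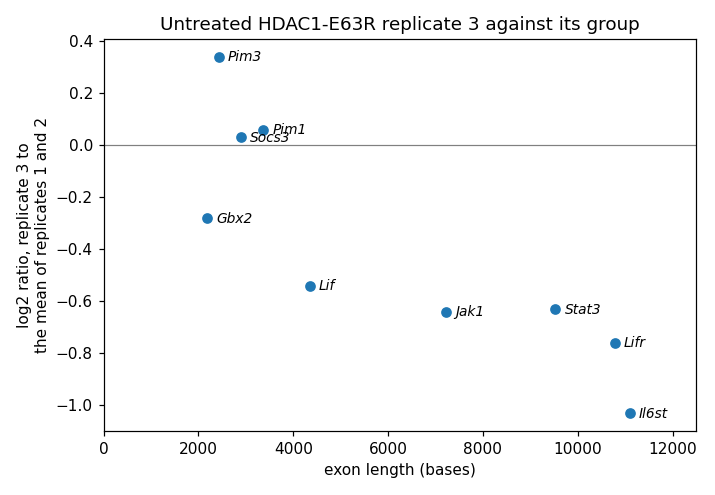
Log2 ratio of each member's CPM in the third untreated HDAC1–E63R library to the mean of the other 2 libraries of that group (y axis) against exon length in bases (x axis), 1 point per member. The ratios run from -1.03 for Il6st (11099 exon bases) to 0.34 for Pim3 (2427 exon bases).

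The wider pathway was read from a list of 74 further genes, of which 67 were tested. This list too was chosen with earlier results of these data known. In the HDAC1-WT line none of the 67 passed after OHT. In the HDAC1–E63R line 11 rose and 5 fell, 23.9% of the list, while 7.49% of all genes rose and 6.82% fell. In the HDAC1–Y48E line 14 rose and 17 fell, 46.3% of the list, while 16.2% of all genes rose and 14.7% fell. The median log2 fold change of the list was 0.05, 0.14 and -0.02 in the HDAC1-WT, HDAC1–E63R and HDAC1–Y48E lines. Without the third untreated HDAC1–E63R library, where 69 of the list were tested, 5, 25 and 41 passed in the HDAC1-WT, HDAC1–E63R and HDAC1–Y48E lines. Of all genes, 1.39%, 18.5% and 41.1% passed in that fit. The counts for parts of the list below are to be read beside the shares of all genes given here. The 5 in HDAC1-WT were Egr1, Junb, Klf4, Smad7 and Tbx3, all higher, by 0.39 to 0.59 on the log2 scale, in a fit where 1.39% of all genes passed, and they are named after their values were seen. Genes named below were DEGs whose treated and untreated libraries did not overlap.

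Of the 5 other ligand genes tested, 2 rose in the HDAC1–Y48E line and none passed in HDAC1–E63R, and Il11 is described here. Il11, an interleukin that also signals through gp130, had 2, 0 and 3 counts untreated and 39, 49 and 51 counts after OHT. Scaled for library size this was 23.5 times as many (95% counting interval 9.84 to 73.6). The difference of its effect from that in HDAC1-WT did not pass (adjusted p = 0.0419, edgeR interaction).

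Of the 6 receptor genes tested, Cntfr fell in both mutant lines and Il6ra rose in 1 with all libraries. Without the third untreated HDAC1–E63R library Il6ra also passed in HDAC1–Y48E (log2 fold change 1.04, adjusted p = 0.0051, edgeR). In that fit Il27ra, which lies outside the rule for named genes, fell in HDAC1–E63R (-1.29, adjusted p = 0.00703). Cntfr encodes the ligand-binding subunit for ciliary neurotrophic factor, which signals with LIFR and gp130. It was at 15.5, 18.7 and 13.4 CPM untreated and at 5.02, 4.26 and 6.12 CPM after OHT in HDAC1–Y48E (log2 fold change -1.62, SE 0.20, adjusted p = 1.27e-06, edgeR). In HDAC1–E63R it was at 22, 29.1 and 21.2 CPM untreated and at 10.1, 10.7 and 13.1 CPM after OHT (-1.09, SE 0.19, adjusted p = 0.00021), and its change was -1.18 without the third untreated library. Both effects differed from that in the HDAC1-WT line, by -1.81 (adjusted p = 4.72e-05, edgeR interaction) and -1.28 (adjusted p = 0.00452), and the difference between the mutants was -0.53 (adjusted p = 0.311). Il6ra, the receptor subunit for IL-6, rose in HDAC1–E63R (log2 fold change 1.72, SE 0.37, adjusted p = 0.00162, edgeR), from 3.33, 2.6 and 1.03 CPM to 5.05, 9.91 and 8.41 CPM. Its changes in HDAC1-WT (1.01) and HDAC1–Y48E (1.04) did not pass with all libraries, and that in HDAC1–E63R was 1.38 without the third untreated library. The effects in HDAC1–E63R and HDAC1-WT differed by 0.72, which did not pass (adjusted p = 0.474, edgeR interaction).

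Of the 9 JAK and STAT genes outside the members, 1 rose and 4 fell in HDAC1–Y48E. None passed in HDAC1–E63R with all libraries, but without the third untreated one Tyk2 fell there by 0.51 on the log2 scale (adjusted p = 0.00112, edgeR), and in HDAC1–Y48E 1 rose and 5 fell. Jak2 was the one that rose, from 18.5, 21.6 and 20.8 CPM to 52.5, 44.1 and 54 CPM (log2 fold change 1.31, SE 0.20, adjusted p = 1.27e-05, edgeR), and its effect differed from that in HDAC1-WT by 1.16 (adjusted p = 0.00375, edgeR interaction). The genes that fell were Jak3 (-0.85), Tyk2 (-0.52), Stat2 (-0.99) and Stat6 (-0.61), none of them by more than 2-fold. They are named although they lie outside the rule for named genes, after their values were seen.

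Of the 15 inhibitor genes tested, 1 rose and 3 fell in HDAC1–E63R, and 3 rose and 4 fell in HDAC1–Y48E. Without the third untreated HDAC1–E63R library, where 16 were tested, 2 rose and 3 fell in HDAC1–E63R and 4 rose and 7 fell in HDAC1–Y48E. The DEGs were all in HDAC1–Y48E and belong to the SOCS family, to which Socs3 also belongs. Socs2 fell from 36.3, 35.6 and 42.8 CPM to 17.3, 16.8 and 13 CPM (log2 fold change -1.29, SE 0.20, adjusted p = 1.77e-05, edgeR). Cish, a STAT5 target, fell from 6.49, 7.74 and 7 CPM to 5.52, 0.997 and 1.8 CPM (-1.37, SE 0.36, adjusted p = 0.00346). Socs5 rose from 12.5, 14 and 10.2 CPM to 29.5, 31.7 and 27.8 CPM (1.28, SE 0.16, adjusted p = 1.26e-06). The effects on Socs2 and Socs5 differed from those in HDAC1-WT by -1.41 (adjusted p = 0.000835, edgeR interaction) and 0.95 (adjusted p = 0.00338), and that on Cish by -0.85 (adjusted p = 0.202). Untreated HDAC1-WT libraries held 15.3, 25.6 and 16 CPM of Socs2, below untreated HDAC1–Y48E and around its treated level. They held 21.1, 24.8 and 26.3 CPM of Cish and 16.6, 17.8 and 19.5 CPM of Socs5, above untreated HDAC1–Y48E. These differences between lines are given without a test.

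LIF also signals through ERK and PI3K, and 6 of the 12 adaptor and kinase genes of those branches passed in HDAC1–Y48E, 3 in each direction. Shc1, an adaptor that links receptors to RAS, fell from 165, 197 and 156 CPM to 74.4, 78.7 and 77 CPM (log2 fold change -1.17, SE 0.14, adjusted p = 6.53e-07, edgeR). Its effect differed both from HDAC1-WT (-1.21, adjusted p = 9.79e-05, edgeR interaction) and from HDAC1–E63R (-1.05, adjusted p = 0.00188). Akt1, a kinase of the PI3K branch, rose from 61.8, 76.5 and 55.8 CPM to 135, 139 and 124 CPM (1.04, SE 0.12, adjusted p = 6.98e-07, edgeR). In HDAC1–E63R Akt1 rose as well, by 0.71 (adjusted p = 0.000224), and 4 of the 12 genes passed there. Of the 12, 5 passed in HDAC1–E63R and 8 in HDAC1–Y48E without the third untreated HDAC1–E63R library.

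Of the 20 ESC genes downstream of LIF, 6 rose in HDAC1–E63R, and 5 rose and 5 fell in HDAC1–Y48E. None fell in HDAC1–E63R with all libraries, but without the third untreated one 9 rose and 2 fell there (Tfcp2l1 by 0.53, adjusted p = 2e-08, and Ccnd3 by 0.29, adjusted p = 0.0024, edgeR), and in HDAC1–Y48E 7 rose and 5 fell. Tfcp2l1, a transcription factor through which STAT3 maintains self-renewal, was at 311, 338 and 329 CPM in untreated HDAC1–Y48E libraries and at 101, 101 and 100 CPM after OHT (log2 fold change -1.70, SE 0.19, adjusted p = 2.06e-07, edgeR). The treated libraries lay below all others of the series. The effect differed from that in HDAC1-WT (-1.69, adjusted p = 4.97e-05, edgeR interaction) and from that in HDAC1–E63R (-1.46, adjusted p = 0.00117), the latter by -1.17 without the third untreated HDAC1–E63R library. In HDAC1–E63R the log2 fold change of Tfcp2l1 was -0.23 with all libraries, at 295, 308 and 132 CPM untreated and 227, 197 and 201 CPM after OHT. Tbx3, a naive pluripotency factor, fell from 86.9, 88 and 84.2 CPM to 42.2, 39.5 and 40.5 CPM (-1.08, SE 0.13, adjusted p = 6.98e-07, edgeR), and its effect also differed from that in HDAC1-WT (-1.49, adjusted p = 2.99e-06, edgeR interaction) and in HDAC1–E63R (-1.31, adjusted p = 0.000108). Untreated HDAC1-WT libraries held more of both genes than untreated HDAC1–Y48E libraries, at 605 to 671 CPM of Tfcp2l1 and 174 to 193 CPM of Tbx3, a difference given without a test.

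The genes of this list that rose in HDAC1–Y48E included immediate-early genes, which many stimuli induce. Junb rose from 78.5, 68.9 and 73 CPM to 148, 154 and 162 CPM (log2 fold change 1.08, SE 0.13, adjusted p = 7.71e-07, edgeR). Its log2 fold change was 0.56 in HDAC1-WT and 0.41 in HDAC1–E63R, and the difference from HDAC1–Y48E passed for neither (adjusted p = 0.0467 and 0.0349, edgeR interaction), but passed for HDAC1-WT without the third untreated HDAC1–E63R library (adjusted p = 0.00127). Zfp36, which destabilises AU-rich messages, rose from 26.3, 28.4 and 33.7 CPM to 72.9, 66.6 and 60.5 CPM (1.18, SE 0.16, adjusted p = 4.3e-06), an effect 1.23 above that in HDAC1-WT (adjusted p = 0.000399, edgeR interaction). Myc, the proto-oncogene, had 3, 7 and 23 counts untreated and 47, 74 and 56 counts after OHT, 4.54 times as many (95% counting interval 3.12 to 6.8). In HDAC1-WT it had 0, 3 and 9 counts untreated and 28, 14 and 16 counts after OHT, and in HDAC1–E63R 46, 29 and 11 and 104, 112 and 84 counts, higher in all treated libraries of both. Neither passed for Myc (adjusted p = 0.259 and 0.0355, edgeR). Its effect in HDAC1–Y48E did not differ significantly from that in HDAC1-WT (difference -0.02, adjusted p = 0.994, edgeR interaction). The Myc effect in HDAC1-WT alone had an SE of 0.74, so this difference was poorly measured and does not show equal effects. Pramel7, a STAT3-responsive gene of naive ESCs, had 9, 5 and 0 counts untreated and 82, 84 and 119 counts after OHT, 17.2 times as many (10.1 to 31.9). In HDAC1-WT Pramel7 had 0 counts in all untreated libraries and 5, 5 and 0 after OHT. HDAC1–E63R libraries held 8, 1 and 20 counts of Pramel7 untreated and 43, 35 and 21 after OHT, which passed only without the third untreated library (adjusted p = 0.00792, edgeR). The differences of the Pramel7 effect in HDAC1–Y48E from those in HDAC1-WT and HDAC1–E63R did not pass (adjusted p = 0.655 and 0.221, edgeR interaction).

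Fos and Egr1, immediate-early transcription factors, were the DEGs of this list in HDAC1–E63R. Egr1 was at 6.01, 4.41 and 5.72 CPM untreated and at 54.1, 44.5 and 49.5 CPM after OHT (log2 fold change 3.19, SE 0.15, adjusted p = 5.91e-12, edgeR). The untreated HDAC1–E63R libraries were the lowest of the series. Untreated HDAC1-WT libraries held 48.3 to 50.3 CPM and untreated HDAC1–Y48E libraries 64.2 to 79.3 CPM, so the treated HDAC1–E63R libraries lay around the untreated HDAC1-WT level. Fos was at 14.2, 17.3 and 8.92 CPM untreated and at 35.3, 32.1 and 26.7 CPM after OHT (1.22, SE 0.18, adjusted p = 3.41e-05, edgeR), below the 85.4 to 98.8 CPM of untreated HDAC1-WT libraries. The Egr1 effect differed from HDAC1-WT by 2.60 (adjusted p = 7.28e-08, edgeR interaction), and that on Fos by 1.00 (adjusted p = 0.0137), which did not pass. Leaving out the third untreated HDAC1–E63R library gave log2 fold changes of 3.23 for Egr1 and 1.00 for Fos, and the difference from HDAC1-WT was 0.78 for Fos and passed (adjusted p = 0.00211, edgeR interaction). In HDAC1–Y48E Fos also rose and passed, from 29.4, 21.6 and 25.8 CPM to 51, 43.8 and 48 CPM. Its effects in HDAC1–Y48E and HDAC1–E63R did not differ significantly (difference -0.32, SE 0.24, adjusted p = 0.531, edgeR interaction).

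**Figure D4:**
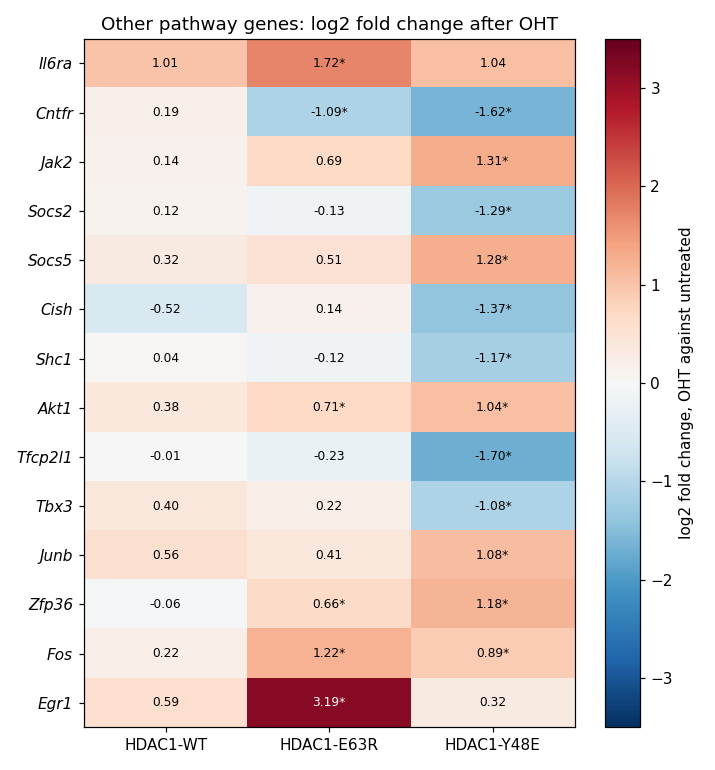
Log2 fold change after OHT in each line (columns) of the further pathway genes named in the text (rows), coloured from blue (lower) to red (higher), with an asterisk where the adjusted p was under 0.01; Il11, Myc and Pramel7, which had libraries with 3 counts or fewer, are left out. Cntfr carries an asterisk in both mutant lines (-1.09 and -1.62), Tfcp2l1 in HDAC1–Y48E alone (-1.70), and no gene in HDAC1-WT.

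The genes most like Lifr, the only member that was a DEG after OHT, were sought by Pearson correlation of log2 CPM over the 18 libraries among 16684 genes with a mean of at least 1 CPM. They were Fzd5 (r = 0.932), a WNT receptor, and Tet2 (0.929) and Tet1 (0.918), enzymes that oxidise 5-methylcytosine. These coefficients are descriptions, since the libraries share their 6 groups. Without the third untreated HDAC1–E63R library they were 0.936, 0.931 and 0.919 over 17 libraries. The log2 fold changes after OHT in HDAC1–Y48E were -1.24 for Fzd5, -1.87 for Tet2 and -1.85 for Tet1, beside -1.17 for Lifr. In HDAC1–E63R they were -0.34, -0.46 and -0.21, and in HDAC1-WT 0.24, 0.15 and 0.10.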

How the data were processed

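RNA-seq libraries of the 3 rescue lines, untreated and after OHT, were analysed as the counts per gene symbol that the authors deposited, without normalization. According to the submitters' processing notes, the genome build was mm10 and the tools were HISAT2 2.1.0, SAMtools 1.9 and HTSeq; the annotation and the use of strand are not given in the sources used here. The 5 entries that name no gene held 59.4% to 61.2% of all entries and were left out. No molecular identifiers are described, so reads may repeat a molecule and intervals and floors cover counting error only.

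Genes were filtered with filterByExpr by group and scaled with TMM factors, and 1 quasi-likelihood model (edgeR 4.0.16 in R 4.3.3) held all 18 libraries. The limits (adjusted p under 0.01, over 2-fold) are those of the study. The named genes were all members, Hdac1 and Hdac2, the DEGs of the further list with non-overlapping groups and a mean over the 6 libraries of 1 CPM or more, and the 3 genes most correlated with each member DEG. The members and lists were chosen with earlier results of these data known. Positions, exon lengths and overlaps came from GENCODE M21 and promoter windows from RefSeq. Results were recomputed with relative log expression (RLE) factors, without the low-count filter, with a replicate block, from only the libraries compared, with glmTreat, with the DESeq2 Wald test (1.42.0), at a limit of 0.05, from CPM with no scaling factor and without each library in turn. The procedure was tested on simulated data. Replicate pairs differed beyond counting noise, so no library was counted as a duplicate. The result for 1 gene that the rule names is not reported here.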

Additional observations from a re-analysis of the deposited data

Results flagged for a closer look

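The effects of OHT on 2 members differed between lines by a test of the difference itself (edgeR interaction over 18 libraries). For Lifr the effect in HDAC1–Y48E minus that in HDAC1-WT was -1.41 (SE 0.25, adjusted p = 0.00032), and it passed in 17 of 17 other fits. For Pim1 the effect in HDAC1–Y48E minus that in HDAC1–E63R was 0.94 (SE 0.12, adjusted p = 5.33e-05), which also passed in 16 of 16 other fits. For Pim1 the effect in HDAC1–E63R minus that in HDAC1-WT was -0.57 (SE 0.12, adjusted p = 0.00587), and this passed in 6 of 16 other fits. The groups hold 3 libraries each, so no library was tested as a single value far from its group.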

How the results depend on the processing

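After OHT, the number of members passing was 2 in HDAC1–E63R and became 0 with glmTreat beyond 2-fold and 1 with only the libraries compared. In HDAC1–Y48E it was 1 and became 2 with no filter on low counts, 3 at a limit of 0.05, 0 with glmTreat and 3 with only the libraries compared. For the difference of effect, HDAC1–Y48E against HDAC1-WT gave 4 with only the libraries compared and 2 with DESeq2, and HDAC1–E63R against HDAC1-WT gave 0 with only the libraries compared, as did untreated HDAC1–E63R against HDAC1-WT. With no scaling factor, 5 of 9 members kept the same highest group. The further pathway list gave 5 calls in HDAC1-WT and 25 in HDAC1–E63R without the third untreated HDAC1–E63R library, an alternative chosen after seeing the data. In that fit 1.39% and 18.5% of all genes passed. Shares of all genes passing are not given for these fits, apart from the one without that library, so the counts do not single out the members. The causes of these changes were not tested.

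Each library of the groups compared was left out in turn, and the third untreated HDAC1–E63R library was also left out of all comparisons, which for those it is not part of was chosen after seeing the data. Then 0 to 0 members passed after OHT in HDAC1-WT, 2 to 3 in HDAC1–E63R and 1 to 3 in HDAC1–Y48E. For untreated lines against HDAC1-WT the counts were 0 to 3 for HDAC1–E63R and 1 to 1 for HDAC1–Y48E. For differences of effect they were 0 to 3 (HDAC1–E63R against HDAC1-WT), 1 to 2 (HDAC1–Y48E against HDAC1–E63R) and 1 to 4 (HDAC1–Y48E against HDAC1-WT). Each upper end other than 0 and 1 was reached without the third untreated HDAC1–E63R library, and the upper end of 2 also without the second. The share of all genes passing was also higher without the third. After OHT it went from 14.3% to 18.5% in HDAC1–E63R and from 30.9% to 41.1% in HDAC1–Y48E. For untreated HDAC1–E63R against HDAC1-WT it went from 16.9% to 20.5%. For the differences of effect, in the order above, it went from 2.45% to 6.53%, from 1.95% to 7.45% and from 12.6% to 23.1%. The Lifr call after OHT in HDAC1–Y48E was kept in 13 of 14 other fits and lost with glmTreat (adjusted p = 0.349), and the Stat3 call between untreated HDAC1–Y48E and HDAC1-WT cells in 11 of 11.

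The sign of 14 uncalled log2 values changed in at least 1 fit. For the OHT effect in HDAC1–E63R against HDAC1-WT the range was -0.35 to 0.13 for Il6st. After OHT in HDAC1–E63R the range was -0.06 to 0.42 for Il6st, -0.39 to 0.09 for Lifr, -0.13 to 0.02 for Socs3, -0.30 to 0.03 for Stat3. For untreated HDAC1–E63R against HDAC1-WT the range was -0.40 to 0.08 for Il6st, -0.25 to 0.24 for Lifr, -0.11 to 0.09 for Pim3. For untreated HDAC1–Y48E against HDAC1-WT the range was -0.11 to 0.13 for Il6st, -0.03 to 0.04 for Pim3. For the OHT effect in HDAC1–Y48E against HDAC1–E63R the range was -0.20 to 0.11 for Jak1, -0.18 to 0.23 for Lif, -0.07 to 0.08 for Socs3. After OHT in HDAC1-WT the range was -0.11 to 0.08 for Lif. Same-numbered libraries did not deviate together (correlations from -0.05 to 0.04), so the replicate numbers were not taken to pair them. With a replicate block no count of members changed, and the log2 difference of Pim3 between untreated HDAC1–E63R and HDAC1-WT cells was 0 with the block. Lif (68 to 164 counts per library) and Gbx2 (39 to 289) had the widest intervals, so changes of the size called in Pim1 and Pim3 might not have been detectable in them at this depth.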
